A study of Mus musculus with 23 samples.

Results

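The genes described here are the 6 mouse actin genes: Acta1 (skeletal muscle alpha-actin), Acta2 (vascular smooth muscle alpha-actin), Actc1 (cardiac alpha-actin), Actg2 (enteric smooth muscle gamma-actin), Actb (cytoplasmic beta-actin) and Actg1 (cytoplasmic gamma-actin). Their members on the array were all probe sets, controls left out, that the platform's annotation gives to 1 of these symbols alone. There were 8 such probe sets of 12422, for 6 of 8251 genes with a symbol of their own. Acta1 (100381_at), Acta2 (93100_at), Actg1 (96573_at) and Actg2 (93102_f_at) had 1 each. Actb had 101578_f_at and 95705_s_at, and Actc1 had 101029_f_at and 101028_i_at.

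All RNA came from primary mouse embryonic fibroblasts, connective tissue cells taken at e14.5 (embryonic day) from a C57/BLACK6 background, and every group carried the ATF1 -/+ genotype. Cultures near confluence spent 48 hours in 1% dialyzed fetal bovine serum and then 2 hours with 200 µM 4-thiouridine and tritiated cytidine in either 1% serum (starved) or 10% serum (treated). 4-thiouridine is a uridine analogue that enters the RNA made while it is present, and thiol-bearing RNA captured on an organomercurial matrix is called newly transcribed. The 23 arrays held newly transcribed RNA (4 starved, 4 treated), total RNA (4 and 4) and amplified total RNA (3 and 4). The titles call same-group arrays biological replicates, and the labels do not say which culture, pool or embryo each number stands for. A protocol common to all samples names a linear amplification, so amplified and unamplified total RNA are told apart by title alone. The comparisons ask what serum changes at synthesis and what it changes in the pool of RNA.

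Actin monomers polymerise into the filaments that give a fibroblast its shape, its stress fibres and its motility. Actb and Actg1 are the cytoplasmic isoforms of nearly all cells, while the other genes are known chiefly from muscle, and Acta2 also from activated fibroblasts. Free actin monomer binds the coactivators MRTF-A and MRTF-B. When serum drives filament assembly and monomer is used up, these move to the nucleus and act with serum response factor (SRF) on a DNA element called the CArG box, which lies before many actin and cytoskeletal genes.

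The start-site windows of the actin genes are shown because the CArG box ties the family to serum. RefSeq (GRCm38.p6) gave a window of 250 bases before and 50 bases after the start for 4 of the 6 genes, Acta1, Acta2, Actc1 and Actg1, each on the minus strand. Actb and Actg2 are named only. The windows lie at chr8:123894726-123895025 (Acta1), chr19:34255324-34255623 (Acta2), chr2:114052826-114053125 (Actc1) and chr11:120348446-120348745 (Actg1). In the sequences below, written 5′ to 3′ on the gene's strand, capitals mark a CArG box (10 letters: CC, a core of 6 letters that are each A or T, then GG) or the same with 1 core letter changed. A CArG box reads as one on both strands, so 1 search covered both.
Acta1: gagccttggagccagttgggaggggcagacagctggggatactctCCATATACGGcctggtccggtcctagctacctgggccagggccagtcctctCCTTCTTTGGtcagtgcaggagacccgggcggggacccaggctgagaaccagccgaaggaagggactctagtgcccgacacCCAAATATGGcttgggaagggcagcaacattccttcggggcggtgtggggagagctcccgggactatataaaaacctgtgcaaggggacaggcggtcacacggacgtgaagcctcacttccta
Acta2: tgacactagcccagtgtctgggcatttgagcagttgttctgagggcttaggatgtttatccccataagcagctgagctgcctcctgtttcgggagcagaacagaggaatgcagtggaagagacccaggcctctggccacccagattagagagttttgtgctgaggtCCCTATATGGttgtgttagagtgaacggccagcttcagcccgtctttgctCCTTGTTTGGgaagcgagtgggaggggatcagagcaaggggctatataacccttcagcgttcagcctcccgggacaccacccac
Actc1: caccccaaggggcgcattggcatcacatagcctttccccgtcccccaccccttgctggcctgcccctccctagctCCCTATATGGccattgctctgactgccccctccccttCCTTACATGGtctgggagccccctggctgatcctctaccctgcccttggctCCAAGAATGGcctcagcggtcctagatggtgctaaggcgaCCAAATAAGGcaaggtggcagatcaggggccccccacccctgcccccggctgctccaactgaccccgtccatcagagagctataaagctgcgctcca
Actg1: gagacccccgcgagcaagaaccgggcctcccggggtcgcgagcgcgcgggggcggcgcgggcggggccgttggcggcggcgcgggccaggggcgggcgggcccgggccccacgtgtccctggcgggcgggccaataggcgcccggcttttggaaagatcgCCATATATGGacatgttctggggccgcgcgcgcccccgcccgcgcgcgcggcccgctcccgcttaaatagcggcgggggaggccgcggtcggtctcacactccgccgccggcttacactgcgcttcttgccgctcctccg

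Acta1 held an exact CArG box (CCAAATATGG) at -73 to -64 from the start and changed ones at -205 to -196 and -154 to -145. Actc1 held an exact box (CCAAATAAGG) at -47 to -38 and changed ones at -175 to -166, -138 to -129 and -87 to -78. Actg1 held 1 exact box (CCATATATGG) at -90 to -81 and no changed one. Acta2 held no exact box in this window and changed ones at -84 to -75 and -34 to -25. Its distances are counted from a start inside the annotated gene span, unlike those of Acta1, Actc1 and Actg1. Of 32851 windows of the same length, 1.63% held an exact box, 9.98% held either form and 0.822% held at least 2 of either form. All 4 actin windows held either form, and 3 of them held at least 2. A match is a description of the letters and was not tested as a binding site.

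**Figure D1:**
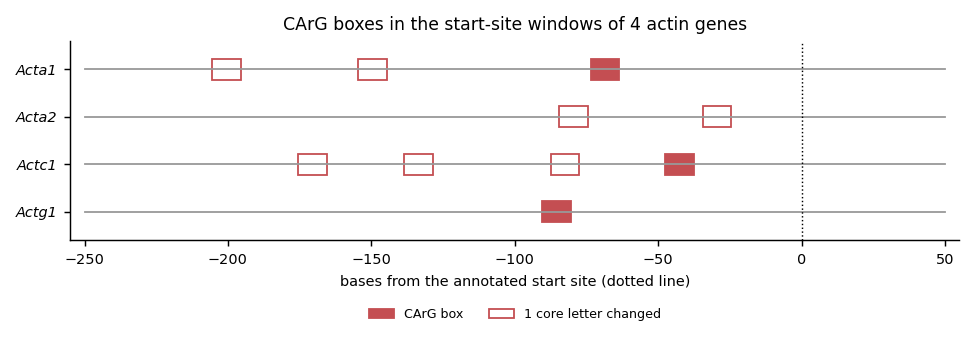
CArG boxes (filled) and boxes with 1 core letter changed (open) in the start-site windows of 4 actin genes, by distance in bases from the annotated start. Acta1, Actc1 and Actg1 each hold 1 exact box, Acta2 holds 2 changed ones, and Actc1 holds 4 boxes of either form.

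In RefSeq's gene annotation, the genes themselves lie at chr8:123891758-123894775 (Acta1), chr19:34240336-34255585 (Acta2), chr5:142903115-142907976 (Actb), chr2:114047282-114052875 (Actc1), chr11:120345687-120348495 (Actg1) and chr6:83512909-83536251 (Actg2). The windows of Acta1, Actc1 and Actg1 are set at the 5′ end of these spans. That of Acta2 is set at a start inside its span. The probe positions inside each gene were not used here. Actins are nearly identical in coding sequence. The suffixes _f and _s are Affymetrix's marks for probe sets that may share sequence with other transcripts, so the values of 101578_f_at, 95705_s_at, 101029_f_at and 93102_f_at cannot be assigned to 1 actin gene with certainty. The suffix _i marks a probe set with fewer probes than the design asked for. 101028_i_at read 0.4 to 9.1 in deposited units on all 23 arrays, at the bottom of the scale, and carries little information.

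Array medians ran from 7.3 to 75.2 in deposited units, so arrays were quantile normalized, and values below are log2(normalized intensity + 16) unless called deposited. Whole profiles of newly transcribed and amplified arrays fell into 2 clusters that the labels do not explain. Cluster 1 held newly transcribed replicates 1 and 4, amplified starved 1 and 3 and amplified treated 1 and 4. Cluster 2 held newly transcribed 2 and 3, amplified starved 2 and amplified treated 2 and 3. Both serum conditions are in each cluster, and same-numbered newly transcribed arrays share one. Fibroblast markers were bright (Col1a2 averaged 4643 and Sparc 2446 in normalized units), except Vim, whose probe set stayed under 50 on every array. Of 11 skeletal muscle markers measured, all but Myod1 averaged under 50 in every group.

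In newly transcribed RNA, Acta1 showed the largest serum difference of the family. Its values in starved cells were 6.01, 7.39, 6.88 and 6.75 for replicates 1 to 4, and in treated cells 6.94, 9.89, 9.93 and 8.66. In deposited units the same arrays read 52.2, 237.2, 193.5 and 60.1 starved and 61.0, 981.2, 938.8 and 364.0 treated. All 4 pairs were higher with serum, while the groups overlapped, since treated replicate 1 lay below the highest starved array. The differences within pairs were 0.94, 2.51, 3.06 and 1.91. In limma's fit without pairing the difference was 2.10 ± 0.67 (SE, 4 against 4) with an adjusted p of 0.64. With the replicate number as a block, Acta1 rose by 2.10 ± 0.33 on the log2 scale, 4.29-fold on log2(intensity + 16), with an adjusted p of 0.042. The call rests on the pairing and on each of 3 pairs, since it was lost without pair 2 (adjusted p 0.21), pair 3 (0.19) or pair 4 (0.074) in limma's paired fit, where the rise was 1.97, 1.78 and 2.17. It was also lost with values as deposited (1.67, adjusted p 0.20 in limma) and with a pseudocount of 1 (2.26, adjusted p 0.12) or 64 (1.75, 0.090) in place of 16.

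Actc1 and Actg2, the other muscle isoforms with family probe sets, had smaller differences in the same direction. Actc1 (101029_f_at) read 7.45, 8.01, 7.75 and 7.49 starved and 8.25, 9.48, 9.29 and 7.88 treated. Actg2 (93102_f_at) read 8.55, 9.01, 8.80 and 8.08 starved and 9.22, 10.59, 10.31 and 8.77 treated. For both, all 4 pairs were higher with serum and the groups overlapped, with treated replicate 4 inside the starved range. The paired differences were 1.05 ± 0.21 (95% interval 0.54 to 1.57, limma adjusted p 0.070) for Actc1 and 1.11 ± 0.20 (0.63 to 1.59, adjusted p 0.053) for Actg2. Neither passed the test over all probe sets. Among probe sets of at least 50 normalized units on 3 or more arrays, limma's paired fit called 777 of 6380, against 216 of 12422 without that filter. With this choice, which tests fewer probe sets, both Actc1 and Actg2 passed (adjusted p 0.016 and 0.010 in limma's paired fit). With values as deposited, only 3 of 4 pairs were higher for each, pair 1 being lower. The paired differences were then 0.53 for Actc1 (limma adjusted p 0.26) and 0.64 for Actg2 (0.27). The 2 probe sets tracked each other with r = 0.94 over 23 arrays after each kind of RNA was centred, and both are marked as family probe sets, so shared signal cannot be told apart from 2 genes moving together.

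Acta2 and Actg1 showed no difference past the test in newly transcribed RNA. Acta2 read 11.38, 11.52, 11.24 and 11.00 starved and 11.72, 11.77, 11.68 and 11.06 treated, higher in 4 of 4 pairs, with a paired difference of 0.28 ± 0.12 (95% interval -0.01 to 0.56, limma adjusted p 0.24). Actg1 read 11.79, 12.32, 12.31 and 11.96 starved and 11.96, 12.54, 12.52 and 11.49 treated. It was higher in 3 pairs and lower in pair 4, and the paired difference was 0.03 ± 0.15 (-0.34 to 0.40, limma adjusted p 0.95). Both probe sets were among the brightest on the array, with mean brightness at percentiles 99.4 (Acta2) and 99.8 (Actg1) of all probe sets.

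The Actb probe sets read lower with serum in newly transcribed RNA, without passing the test. 101578_f_at read 10.90, 6.46, 6.50 and 11.68 starved and 10.15, 5.36, 5.83 and 11.78 treated. It was lower in 3 of 4 pairs, with differences of -0.75, -1.11, -0.67 and 0.10. The paired difference was -0.61 ± 0.20 (-1.10 to -0.12, limma adjusted p 0.16), and that of 95705_s_at was -0.62 ± 0.20 (-1.11 to -0.14, adjusted p 0.15), lower in 4 of 4 pairs. In deposited units 95705_s_at read only 146.3, 16.4, 17.5 and 58.5 starved and 48.4, 10.1, 6.2 and 21.7 treated, so part of its difference lies near the floor. The array also carries 3 Actb control probe sets named for the 5′ end, the middle and the 3′ end of the same GenBank record that 101578_f_at is annotated to, and these read the other way. The middle control was higher with serum in 4 of 4 pairs (1.00, 1.48, 1.64 and 0.28). With the controls kept in limma's paired fit (12488 probe sets), the differences were 0.96 ± 0.20 at the 5′ end (adjusted p 0.071), 1.10 ± 0.23 in the middle (0.073) and 0.55 ± 0.15 at the 3′ end (0.11). Probe sets given to 1 gene thus disagreed in sign, none of them past the test, and no direction is given here for Actb.

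Over the family, limma called 0 of 8 probe sets in newly transcribed RNA without pairing, where 0% of all probe sets were called. There 3 of 8, against 6.44% of all probe sets, had an unadjusted p below 0.05. With pairs, 1 of 8 was called (Acta1) against 1.74% of all probe sets, and 5 of 8 against 21.7% had an unadjusted p below 0.05. The median difference of the 8 probe sets was 0.23 and that of all probe sets 0.01. Within the array clusters, Acta1's difference was 1.42 in cluster 1 and 2.78 in cluster 2, that of Actc1 0.60 and 1.51, and that of Actg2 0.68 and 1.54, each from 2 arrays against 2. The Actb probe set 101578_f_at gave -0.32 and -0.89. With the cluster as a block in place of the pairs, limma called 0 of 8 against 0.362% of all probe sets, with adjusted p 0.11 for Acta1, 0.097 for Actc1 and 0.11 for Actg2. Same-numbered arrays share a cluster here, so the correlations that set the pairing cannot tell pairs from clusters.

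**Figure D2:**
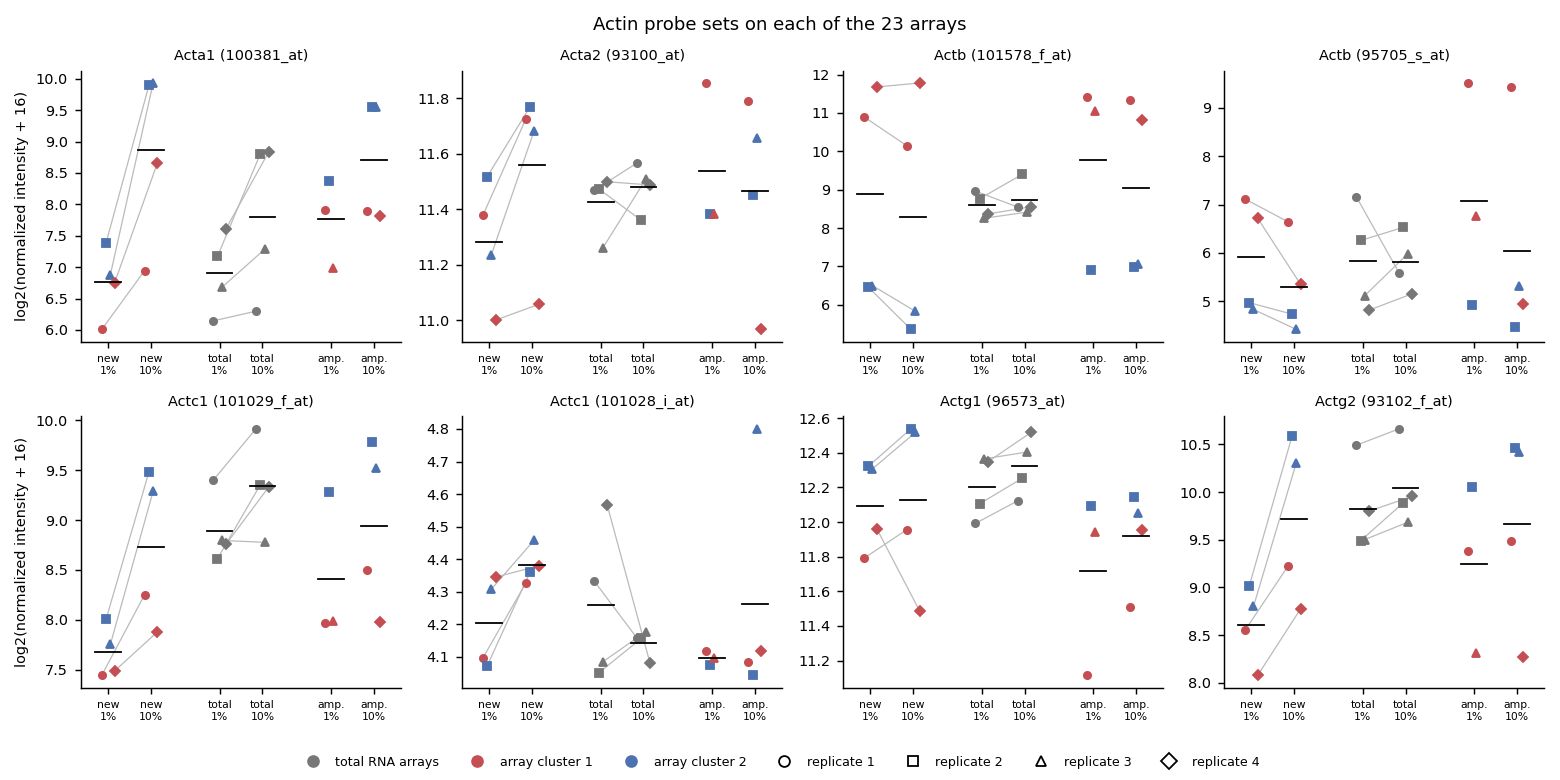
Each actin probe set on each array, as log2(normalized intensity + 16), in newly transcribed (new), total and amplified (amp.) RNA at 1% and 10% serum. Shapes give the replicate number, colours the array cluster, black bars group means, and grey lines join the pairs of newly transcribed and of total RNA. Acta1 rises in 4 of 4 newly transcribed pairs, and Actb 101578_f_at splits by array cluster.

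Total RNA gave smaller differences of the same sign for Acta1, Actc1 and Actg2, none past the test. Acta1 read 6.14, 7.17, 6.68 and 7.61 starved and 6.30, 8.80, 7.28 and 8.84 treated, higher in 4 of 4 pairs with overlapping groups. The paired difference was 0.91 ± 0.25 (95% interval 0.30 to 1.51, limma adjusted p 0.30). Actc1 (101029_f_at) read 9.40, 8.61, 8.80 and 8.76 starved and 9.92, 9.35, 8.78 and 9.33 treated, a paired difference of 0.45 ± 0.14 (adjusted p 0.37) with 3 of 4 pairs higher. Actg2 differed by 0.23 ± 0.09 (adjusted p 0.46) with 4 of 4 pairs higher by 0.15 to 0.40. Actg1 read 11.99, 12.11, 12.36 and 12.35 starved and 12.12, 12.25, 12.40 and 12.52 treated, higher in 4 of 4 pairs, with a paired difference of 0.12 ± 0.09 (-0.09 to 0.33, adjusted p 0.69).

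The remaining probe sets differed little in total RNA. Acta2 gave a paired difference of 0.06 ± 0.10, and the Actb probe sets gave 0.14 ± 0.18 and -0.03 ± 0.39. Limma called 0 of 8 actin probe sets, against 0.121% of all probe sets without pairing and 0.483% with pairs. An unadjusted p below 0.05 was found for 0 of 8 without pairing (4.94% of all probe sets) and for 2 of 8 with pairs (10.7%). The median of the 8 was 0.13, and that of all probe sets -0.01. In bulk RNA, fewer cells of a type and less RNA per cell cannot be told apart.

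Amplified total RNA had wide spreads and no call. Acta1 read 7.91, 8.38 and 6.99 starved and 7.90, 9.56, 9.55 and 7.82 treated. The difference without pairing was 0.95 ± 0.59 (95% interval -0.44 to 2.33, limma adjusted p 1.00), and it was 0.41 within cluster 1 and 1.17 within cluster 2. Actc1 (101029_f_at) read 7.97, 9.28 and 7.99 starved and 8.50, 9.78, 9.52 and 7.98 treated. Actg2 read 9.38, 10.06 and 8.31 starved and 9.49, 10.47, 10.42 and 8.27 treated. In both, cluster 1 arrays of either serum condition lay below all cluster 2 arrays. Actc1 differed by 0.53 ± 0.54, Actg2 by 0.41 ± 0.64, Actg1 by 0.20 ± 0.29 and Acta2 by -0.07 ± 0.26. The Actb probe sets differed by -0.73 ± 1.56 and -1.03 ± 1.49, with 95% intervals of -4.42 to 2.97 and -4.55 to 2.49. Limma called 0 of 8, as it called 0% of all probe sets, and 0 of 8 had an unadjusted p below 0.05 (1.41% of all probe sets). Replicate numbers did not pair here, since the deviations of the arrays numbered 3 correlated at -0.47.

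**Figure D3:**
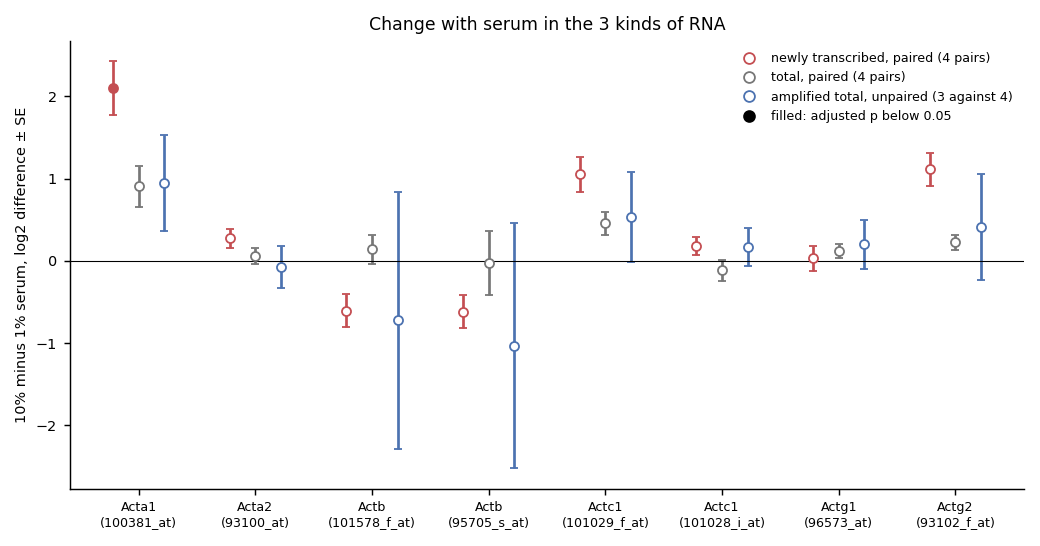
Difference between 10% and 1% serum for each actin probe set, as a log2 difference ± SE from limma, paired in newly transcribed and total RNA (4 pairs each) and unpaired in amplified total RNA (3 against 4 arrays). Only Acta1 in newly transcribed RNA, at 2.10 ± 0.33, is past an adjusted p of 0.05 (filled).

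Whether the serum response differed between kinds of RNA was tested directly, and no actin probe set passed. The response of Acta1 was larger in newly transcribed than in total RNA by 1.20 ± 0.95 without pairing (95% interval -0.84 to 3.23) and by ± 0.45 around the same value with pairs (limma adjusted p 0.39). That of Actg2 was larger by 0.88 ± 0.23 with pairs (limma adjusted p 0.32), and that of Actc1 by 0.60 without a call. With values as deposited, the differences of Actc1 and Actg2 turned to -0.34 and -0.02. Limma called 0 of 8 for newly transcribed minus total RNA (0% of all probe sets, with and without pairs). An unadjusted p below 0.05 was found for 0 of 8 without pairing (2.41% of all probe sets) and for 3 of 8 with pairs (10.8%). Limma also called 0 of 8 for newly transcribed minus amplified total RNA (0% of all probe sets), where Acta1 differed by 1.16 ± 0.95. There 0 of 8 had an unadjusted p below 0.05, against 1.62% of all probe sets. The 2 comparisons share the newly transcribed arrays.

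Newly transcribed RNA was also set against amplified total RNA at each serum level, which relates the RNA made in 2 hours to the pool. Starved cells showed lower newly transcribed values for 6 of 8 probe sets, none past the test without a block. Acta1 differed by -1.0 ± 0.70 and Actc1 (101029_f_at) by -0.74 ± 0.50 in 1% serum. Limma called 0 of 8 there, against 5.76% of all probe sets, and 0 of 8 had an unadjusted p below 0.05 (18.4% of all probe sets). With the array cluster as a block, limma called 1 of 8 against 18.5% of all probe sets: Actc1 was lower by 0.92 ± 0.23 (as newly transcribed minus amplified, -0.92, adjusted p 0.013), and Acta1 gave -1.24 ± 0.41 (adjusted p 0.052). The within-cluster values of Actc1 were -0.51 and -1.40, the second against a single amplified array. With values as deposited, the signs of Acta1, Actc1 and Actg2 turned (0.02, 0.30 and 0.44), so the direction in starved cells depends on the scaling.

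In 10% serum the same probe sets lay close together in newly transcribed and amplified total RNA. Acta1 differed by 0.15 ± 0.65, Actc1 by -0.22 ± 0.46 and Actg2 by 0.06 ± 0.54, and the 95% interval of Acta1 ran from -1.24 to 1.55. Limma called 0 of 8 against 7.26% of all probe sets, with 0 of 8 at an unadjusted p below 0.05 (19.8% of all probe sets). With the replicate number as a block it called 0 of 8 against 18.7%. That fit also holds the starved arrays, whose numbers did not pair between these kinds of RNA. Newly transcribed RNA was not tested against unamplified total RNA, since these differ by amplification as well as by labelling.

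Amplified and unamplified total RNA, averaged over serum, differed for no actin probe set past the test without a block. Actg1 came nearest, with 12.20 ± 0.18 and 12.32 ± 0.17 (SD, n = 4) in starved and treated total RNA against 11.72 ± 0.53 (n = 3) and 11.92 ± 0.28 (n = 4) after amplification. Its difference was -0.45 ± 0.16 (95% interval -0.78 to -0.11, limma adjusted p 0.063). Acta1 differed by 0.88 ± 0.45 (adjusted p 0.20). Limma called 0 of 8 against 18.8% of all probe sets, with 1 of 8 at an unadjusted p below 0.05 (31.8% of all). With the replicate number as a block it called 1 of 8 against 24.8%: Actg1 was lower after amplification, at -0.43 ± 0.11 (adjusted p 0.021). By the correlation of their deviations, the numbers pair treated arrays of these 2 kinds but not starved ones. The Actb controls fell off towards the 5′ end with amplification. The 3′ minus 5′ control value was 0.35 ± 0.17 (SD, n = 8) in total RNA, 2.27 ± 0.44 (n = 7) in amplified and 2.37 ± 0.55 (n = 8) in newly transcribed RNA. In newly transcribed replicates 1 to 4 it was 2.90, 2.49, 2.21 and 2.69 starved and 3.12, 1.58, 1.65 and 2.29 treated. It was thus lower with serum in replicates 2, 3 and 4 and higher in replicate 1. Its part in the serum differences of the actin probe sets was not tested.

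The order of the 6 groups differed between the genes. Acta1 was highest in treated newly transcribed RNA (8.86 ± 1.41, SD, n = 4) and lowest in starved newly transcribed RNA (6.76 ± 0.57). Actc1 and Actg2 were highest in treated total RNA (9.35 ± 0.46 and 10.05 ± 0.43) and lowest in starved newly transcribed RNA (7.67 ± 0.26 and 8.61 ± 0.40). Acta2 ranged only from 11.28 ± 0.22 in starved to 11.56 ± 0.34 in treated newly transcribed RNA, the narrowest span among the 7 probe sets above the floor. For those 7 probe sets, neighbours in the order differed by less than the larger of their SDs, except for a step of 0.86 in Acta1 from starved amplified (7.76 ± 0.71) to starved total RNA (6.90 ± 0.63).

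The Actb probe set 101578_f_at varied far more between array clusters than between groups of the design. In newly transcribed RNA, its 4 cluster 1 arrays averaged 11.13 (10.15 to 11.78) and its 4 cluster 2 arrays 6.04 (5.36 to 6.50), a difference of 5.09. In amplified total RNA the values were 11.15 (10.82 to 11.41) and 6.99 (6.90 to 7.07), a difference of 4.17. The 8 total RNA arrays lay between, at 8.66 (8.25 to 9.40). Of 12422 probe sets, this one had the largest absolute cluster difference in both kinds of RNA, where the median probe set differed by 0.32 and 0.39. The clusters were drawn from whole profiles that include this probe set, so this is a description with no test.

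The second Actb probe set, 95705_s_at, averaged higher in cluster 1 by 1.72 in newly transcribed RNA (5.35 to 7.12 against 4.42 to 4.97). In amplified total RNA it averaged higher by 2.76, but the clusters overlapped (4.94 to 9.52 against 4.47 to 5.32). The highest amplified values, 9.52 and 9.44, came from the arrays numbered 1, which read 105.3 and 264.3 in deposited units. The Actb controls went the other way and by less. Their cluster 1 minus cluster 2 differences in newly transcribed and amplified RNA were -0.21 and -0.31 at the 3′ end, -0.40 and -0.45 in the middle, and -0.98 and -0.58 at the 5′ end. The same differences were -1.43 and -1.51 for Acta1 and -0.62 and -0.47 for Actg1. Centred within kinds over 23 arrays that share normalization, 101578_f_at correlated with 95705_s_at at r = 0.68, with Actg1 at -0.81 and with the 3′ Actb control at -0.30. What sets the clusters apart was not tested.

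**Figure D4:**
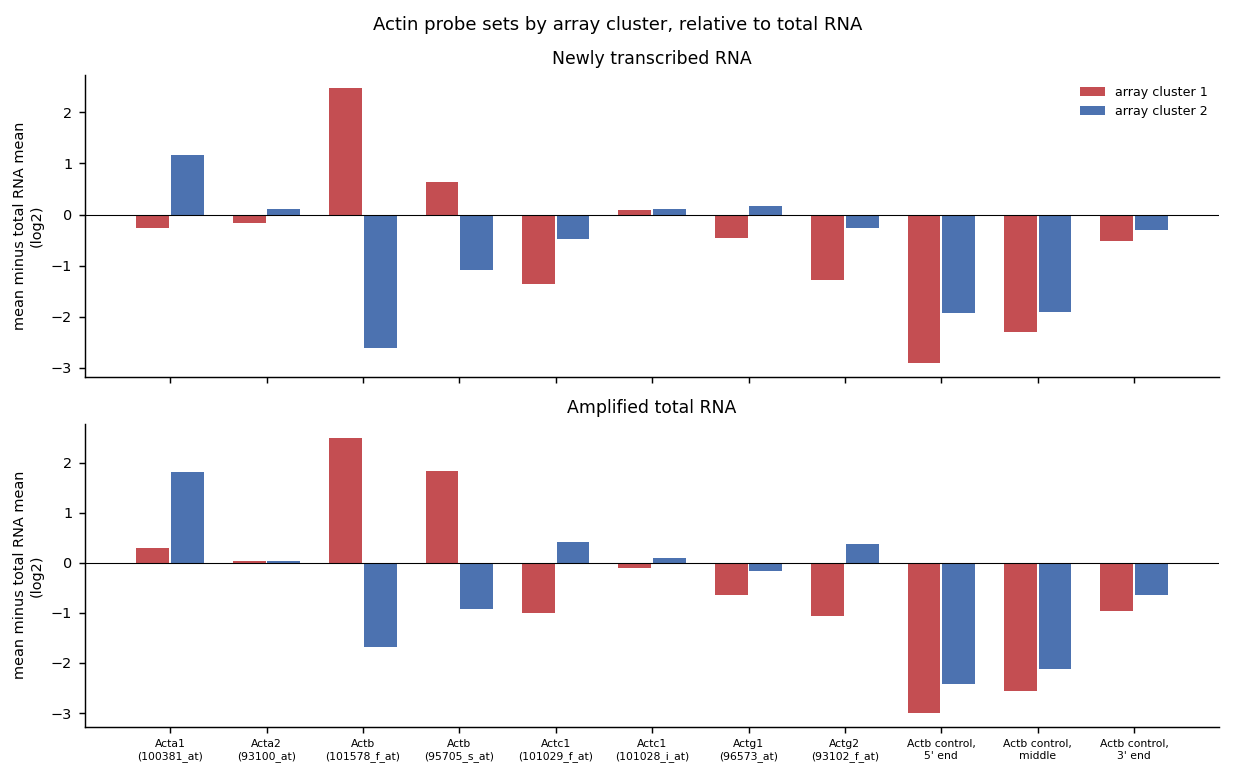
Mean of each actin probe set and of the 3 Actb controls in array clusters 1 and 2, minus its mean over the 8 total RNA arrays, as log2 differences, in newly transcribed RNA (4 arrays each) and amplified total RNA (4 and 3). Actb 101578_f_at lies 2.47 above total RNA in cluster 1 and 2.62 below it (-2.62) in cluster 2 of newly transcribed RNA, while each control is below total RNA in both clusters.

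Genes whose pattern was most like that of an actin gene were taken from 4126 brighter genes, by Pearson's r over the 23 arrays after centring each kind of RNA. For Acta1 these were Cd44, a hyaluronan receptor (0.92), St6galnac4, a sialyltransferase (0.91), and Cnn1, the smooth muscle calponin (0.90). All 3 were also nearest with values as deposited, and 1 of the 3, St6galnac4, without centring. Actc1 and Actg2 were each other's nearest (0.94), followed by Ehd1 (0.93) and Nes (0.92) for Actc1 and by Plod3 (0.93) and Scarb1 (0.92) for Actg2. Actb (101578_f_at) went with Suz12, Ipo8 and Dr1 (each 0.97), Actg1 with Rce1 (0.91), Gps1 (0.90) and Plcd1 (0.89), and Acta2 with Foxm1 (0.84), Ndel1 (0.83) and Htra2 (0.82). With values as deposited, 0 of the 3 stayed nearest for Acta2 and Actg1, 1 for Actc1, and 2 for Actb and Actg2. Without centring, 0 of the 3 stayed for Actb, 1 each for Acta2, Actc1 and Actg1, and 3 for Actg2. Centring within kinds leaves the array clusters in place, so r also reflects differences between clusters. Those of Actb 101578_f_at were the largest of all probe sets (5.09 in newly transcribed and 4.17 in amplified total RNA).

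Genes that act on actin were described from lists of pathway genes, each by its brightest probe set, in the paired fits. Among 11 measured genes for actin monomer binding, 1 rose in newly transcribed RNA, where limma's paired fit called 1.74% of all probe sets. This was Cfl1, cofilin, which severs filaments and binds monomer, by 0.74 ± 0.11 (limma adjusted p 0.042), against 0.08 ± 0.09 in total RNA. Tmsb10, thymosin beta-10, gave 0.92 ± 0.20 (adjusted p 0.077). The median of the list was 0.24, with 8 of 11 above 0, and that of all probe sets was 0.01.

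SRF and the factors that link it to actin had 0 of 12 measured genes called in limma's paired fit of newly transcribed RNA, against 1.74% of all probe sets. Of the 12, 10 were above 0, and their median was 0.27 against 0.01 for all probe sets. Fhl1, a LIM domain protein, gave 0.77 ± 0.16 (limma adjusted p 0.073) and Rhoc, a small GTPase, 0.74 ± 0.13 (0.052). Mrtfa, which encodes the coactivator MRTF-A, gave 0.42 ± 0.17 (0.23).

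The other lists had 0 genes called in either direction in limma's paired fit of newly transcribed RNA, against 1.74% of all probe sets, whose median was 0.01. For nucleation and the Arp2/3 complex the median of 12 genes was 0.22, led by Arpc5 (0.46 ± 0.17) and Was (0.36 ± 0.16). For filament capping, severing and crosslinking the median of 20 was 0.07, with Enah (0.59 ± 0.12, limma adjusted p 0.071) and Capg (0.58 ± 0.11, 0.064) the largest. For actin-related proteins and the CCT and prefoldin chaperones that fold actin, the median of 14 was -0.01, with Actl6a at -0.48 ± 0.15 and Tcp1 at 0.41 ± 0.12. For non-muscle myosin II the median of 7 was 0.14, with Myh9 (0.92 ± 0.33) and Myl9 (0.88 ± 0.23) the largest. In total RNA, 0 genes of these lists were called, against 0.483% of all probe sets.

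**Figure D5:**
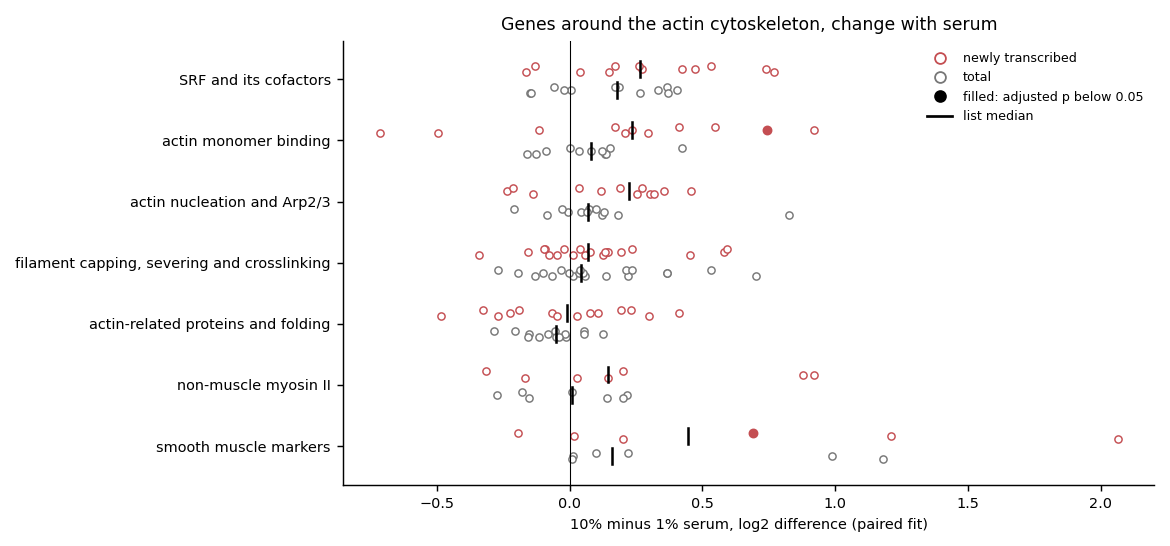
Difference between 10% and 1% serum (log2, paired fit) for each measured gene of 6 pathway lists and of the smooth muscle markers, in newly transcribed (red) and total RNA (grey), with the list median as a black bar. Filled points are past an adjusted p of 0.05: Cfl1 at 0.74 and the smooth muscle marker Tagln at 0.69, both in newly transcribed RNA.

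Markers of muscle were read beside the muscle actins. Of 6 smooth muscle markers measured, Tagln (transgelin) rose in newly transcribed RNA by 0.69 ± 0.10 (limma paired, adjusted p 0.042), while Cnn1 gave 2.06 ± 0.38 (0.058) and Smtn 1.21 ± 0.30 (0.090). The defining markers Myh11 and Des averaged under 50 in every group. The summed level of the 6 ran from 1143 to 4249 in starved and from 2099 to 8679 in treated newly transcribed RNA, and from 3503 to 3972 and 4005 to 5535 in total RNA. Of 10 cardiac markers, Nppb, the natriuretic peptide gene, rose by 1.81 ± 0.17 (limma paired, adjusted p 0.026). Myh6, Myh7, Myl2, Myl7, Nkx2-5, Tnnt2 and Tnni3 averaged under 50 in every group, and the summed level of the 10 ran from 153 to 289.8 starved and from 244 to 670.1 treated in newly transcribed RNA. None of 11 skeletal markers was called in limma's paired fit, which called 1.74% of all probe sets. Their sum ran from 138 to 180.1 starved and from 152 to 266 treated. Of 12 fibroblast markers, Thy1 rose by 1.04 ± 0.12 (limma paired, adjusted p 0.027) and Lum fell by 1.38 ± 0.23 on the log2 scale (0.046). Their sum ran from 9064 to 15247 starved and from 8249 to 15289.9 treated. Calls of single genes in the paired fit depend on each pair: of 216 probe sets called in newly transcribed RNA, leaving out 1 pair gave counts of 0 to 25. The part of these markers in the actin values was not tested.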

How the data were processed

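Per the labels, RNA was isolated on columns, reverse-transcribed, amplified linearly, labelled with biotin through T7 and hybridised to Affymetrix arrays. The deposited table holds 1 linear intensity per probe set and array, with no log taken. The software, any scaling by the authors and a genome build are not given in the sources used here. The table had 12488 probe sets on 23 arrays, 42 values at 0 and 0 identical pairs of arrays. Of the tested probe sets, 10833 had 1 symbol in the platform's annotation, 396 several and 1193 none listed. Coordinates and sequences are RefSeq's, GRCm38.p6.

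Arrays were quantile normalized, log2(intensity + 16) was taken of the normalized intensity, and 66 control probe sets were left out of tests. The pseudocount understates changes of dim probe sets. Groups came from sample titles. The 8 comparisons were fitted in R 4.3.3 by limma 3.58.1 through its functions lmFit and eBayes. P-values were two-sided, were adjusted over all 12422 tested probe sets by the Benjamini-Hochberg method, and were held against 0.05. Values are log2 differences ± SE of the fit, and intervals are at 95%. The steps were tested on simulated data. The number of arrays limits the precision, and p-values measure only the spread between these arrays.

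Replicate numbers were taken to pair 2 groups where the deviations of every same-numbered pair from the group means correlated above 0.1 over all probe sets. They did for newly transcribed starved and treated arrays (0.80, 0.80, 0.76 and 0.70), for total RNA (0.70, 0.23, 0.47 and 0.57), for newly transcribed and amplified treated arrays (0.56, 0.73, 0.71 and 0.69) and for total and amplified treated arrays (0.30, 0.14, 0.23 and 0.27). Total and amplified starved arrays did not meet it (0.31, 0.071 and 0.15). Newly transcribed and amplified starved arrays did not either (0.37, 0.68 and -0.39), nor did amplified starved and treated arrays (0.69, 0.76 and -0.47). The pairing comes from the data. In newly transcribed and in amplified treated RNA, replicates 1 and 4 share an array cluster, as do replicates 2 and 3. Same-numbered arrays could therefore correlate through the cluster alone, and the check cannot tell pairs from clusters there. Every actin probe set is described, a gene with several is represented by its brightest, and the 3 most similar genes and the called or 2 largest genes of each list are named. Array clusters came from average linkage on 1 minus Pearson's r. The members, gene lists and tests were chosen with earlier results of these data known, and the fits that keep pairs under other settings were chosen after seeing the data.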

Additional observations from a re-analysis of the deposited data

Results flagged for a closer look

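Of 40 groups of 4 arrays examined over the 8 actin probe sets, 5 held an array far from the other 3 by Dixon's gap over range, and chance marks about 1 in 20 groups. Actc1 101028_i_at in amplified treated replicate 3 read 4.80 against 4.04 to 4.12 (ratio 0.901), a spread at the floor of the scale. Acta2 in newly transcribed treated replicate 4 read 11.06 against 11.68 to 11.77 (0.880). Acta2 in total starved replicate 3 read 11.26 against 11.47 to 11.50 (0.870). Actb 101578_f_at in total treated replicate 2 read 9.40 against 8.41 to 8.55 (0.860). Actb 95705_s_at in amplified treated replicate 1 read 9.44 against 4.47 to 5.32 (0.830).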

How the results depend on the processing

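Of the actin probe set values under alternative settings, 1228 kept their direction and side of the threshold, 8 passed it newly, 6 lost it and 108 changed sign. Of those 108, 37 came from other settings and 71 from leaving out arrays, and 0 involved a called value. The paired fit of newly transcribed RNA called 1 actin probe set, 0 with values as deposited (Acta1 1.67, limma adjusted p 0.20), 0 with a pseudocount of 1 (2.26, 0.12) or 64 (1.75, 0.090), 2 with arrays scaled to 1 median (Acta1 and Actg2) and 3 with dim probe sets left out (Actc1 too). Leaving out both arrays of 1 replicate gave 0 to 1. Over all probe sets that paired count was 216, 0 to 25 leaving out a pair and 0 to 777 under any setting, and for total RNA 60, 0 to 10 and 0 to 125.

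Without pairing, newly transcribed RNA had 0 actin probe sets called, and the replicate block gave 1, Acta1. In amplified against unamplified total RNA, where the numbers pair treated arrays but not starved ones, the replicate block called 1 (Actg1, -0.43, limma adjusted p 0.021). In the same comparison, scaling to 1 median called 1 (Acta2, 0.58, 0.040) and leaving out 1 array gave 0 to 1, with Actg1 called without amplified starved replicate 2 (-0.54, 0.027). Of all 12422 probe sets, 2358 were called with that scaling and 2879 without that array. The replicate block changed no call of an actin probe set beside those of Acta1 and Actg1. The array cluster as a block called 1 (Actc1) in newly transcribed against amplified RNA in 1% serum. The counts over all probe sets ran from 0 to 2301 in that comparison (715 as reported), 0 to 2556 in 10% serum (902), 264 to 3081 in amplified against unamplified (2338), 0 to 216 in newly transcribed serum (0) and 1 to 60 in total RNA serum (15).

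With values as deposited, uncalled differences changed sign as follows. Serum responses turned for Actg1 (-0.042) in newly transcribed, Actb 95705_s_at (0.29) in total and Acta2 (0.57) in amplified RNA, the first and second with and without pairs. Newly transcribed minus total RNA turned for Acta2 (-0.44), Actc1 (-0.34) and Actg2 (-0.020). Newly transcribed minus amplified turned for Acta2 (-0.49), Actb 101578_f_at (-0.72), Actb 95705_s_at (-0.32), Actc1 (-0.57) and Actg2 (-0.46). Newly transcribed against amplified RNA turned for Acta1 (0.016), Acta2 (0.24), Actc1 (0.30) and Actg2 (0.44) in 1% serum and for Acta2 (-0.25), Actg1 (-0.052) and Actg2 (-0.023) in 10% serum. Scaling to 1 median turned the serum response of Actb 95705_s_at (0.015) in total RNA (with pairs too) and of Acta2 (0.026) in amplified RNA. It turned Actg1 (0.18) in newly transcribed minus total and Actg1 (0.026) in newly transcribed minus amplified. It also turned Actg1 (-0.13) in 1% serum, Acta2 (-0.30), Actg1 (-0.100) and Actg2 (-0.073) in 10% serum and Actc1 101028_i_at (0.015) in amplified against unamplified RNA. A pseudocount of 1 turned Actb 95705_s_at (0.075) in total RNA serum, with and without pairs, and Actb 101578_f_at (-0.0023) in newly transcribed minus amplified. A pseudocount of 64 turned Actc1 101028_i_at (-0.0023) there. The replicate block turned Acta2 (0.094) in amplified serum and Actc1 101028_i_at (-0.037) in newly transcribed minus amplified, where the cluster block turned Actb 101578_f_at (-0.66).

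Leaving out 1 array in turn gave ranges across 0 in newly transcribed serum for Actb 101578_f_at (-1.77 to 0.37) and Actg1 (-0.11 to 0.24). In total RNA serum they were Actb 101578_f_at (-0.085 to 0.27) and Actb 95705_s_at (-0.37 to 0.41). In amplified serum they were Acta2 (-0.18 to 0.094), Actb 101578_f_at (-2.17 to 0.087), Actb 95705_s_at (-2.17 to 0.19), Actc1 101028_i_at (-0.015 to 0.24), Actg1 (-0.10 to 0.39) and Actg2 (-0.057 to 0.88). In newly transcribed minus total RNA they were Actb 101578_f_at (-1.91 to 0.23) and Actg1 (-0.23 to 0.12), and in newly transcribed minus amplified Actb 101578_f_at (-1.05 to 1.56), Actb 95705_s_at (-0.81 to 1.54), Actc1 101028_i_at (-0.062 to 0.19) and Actg1 (-0.36 to 0.13). In newly transcribed against amplified RNA they were Actb 95705_s_at (-2.24 to 0.056) in 1% serum. In 10% serum they were Acta1 (-0.21 to 0.79), Acta2 (-0.075 to 0.26), Actb 101578_f_at (-1.95 to 0.20), Actb 95705_s_at (-1.28 to 0.38), Actc1 (-0.54 to 0.063) and Actg2 (-0.40 to 0.38). In amplified against unamplified RNA they were Acta2 (-0.029 to 0.13) and Actc1 101028_i_at (-0.11 to 0.030). Leaving out 1 pair in paired fits gave Actg1 (-0.033 to 0.20) in newly transcribed RNA and Acta2 (-0.0087 to 0.11), Actb 101578_f_at (-0.026 to 0.33), Actb 95705_s_at (-0.32 to 0.49) and Actc1 101028_i_at (-0.19 to 0.0076) in total RNA. Actc1 without an identifier is 101029_f_at. The cause was not tested. Probe sets near the floor, such as Actc1 101028_i_at, and the sharing of family probes limit what these signals can separate.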
